A study of Homo sapiens with 12 samples.

Results

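HOX genes encode homeodomain transcription factors that lie in 4 clusters, HOXA on chromosome 7, HOXB on chromosome 17, HOXC on chromosome 12 and HOXD on chromosome 2 in RefSeq's GRCh38.p14. All probe sets whose annotated symbol was HOXA, HOXB, HOXC or HOXD followed by a number and nothing else were taken, which gave 23 probe sets for 23 genes among 17709 probe sets named for exactly 1 gene. RefSeq lists 39 protein-coding HOX genes. The probe sets named for exactly 1 gene covered 1 of 11 HOXA genes (HOXA2), 8 of 10 HOXB genes, 6 of 9 HOXC genes and 8 of 9 HOXD genes. Probe sets named for more than 1 gene were left out, and the other HOX genes were not analysed here. The HOXA cluster is therefore all but unseen in what follows.

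RNA came from MCF-10A, an established non-tumorigenic line of human breast epithelium, and was measured on 12 whole-transcript arrays. In the co-culture (4 arrays), cells carrying HER2 L755S and cells carrying PIK3CA E545K grew together until about 75% of them were HER2-mutant, by droplet digital PCR. The other groups were the HER2 L755S line alone (4 arrays) and the PIK3CA E545K line alone (4 arrays), the mutations lying in the receptor kinase HER2 and in the catalytic subunit of PI3K. All groups shared a medium with physiologic EGF and a harvest at 7 to 14 days, with no further treatment, and MCF-10A cells without a mutation were not analysed here. Each mutation is represented by 1 named line, and the labels, which give 4 RNA extractions per group, do not say whether these came from separate cultures, so p-values measure the spread between these samples only. Mutation and line cannot be told apart, and on which day an array's cells were harvested is not stated.

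Along a cluster, the paralog number follows the position of the gene, and in embryos low numbers (1 to 4) mark the head and neck region, middle numbers (5 to 8) the trunk and high numbers (9 to 13) the caudal trunk, limbs and tail. Adult cells commonly keep a set of active HOX genes from their site of origin, held by Trithorax and Polycomb chromatin complexes. In the mammary gland, paralogs of group 9 are known from mice to be needed for its growth in pregnancy.

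Array medians were 6.41 to 6.49 on the log2 scale. Marker genes matched the label: 5 of 5 measured basal markers of breast epithelium (KRT5, KRT14, ITGA6, ITGB4, CDH3) and 5 of 5 general epithelial markers (EPCAM, CDH1, KRT8, KRT18, KRT19) were above the background limit on all 12 arrays. Of other cell types, 2 of 7 fibroblast markers (COL1A2 and DCN), 1 of 4 blood markers (CD14) and 0 of 4 endothelial markers passed that limit in at least 1 group. Across those markers the summed fibroblast level was 9.61 to 9.80 in the co-culture, 10.94 to 11.31 in HER2-mutant cells and 8.98 to 9.47 in PIK3CA-mutant cells on the log2 scale. DCN alone averaged 8.03, 10.70 and 7.07 in the same order of groups. THY1, above the limit in no group, stood higher in HER2-mutant than in PIK3CA-mutant cells (0.40, limma adjusted p 0.0329). THY1 was lower in the co-culture than in HER2-mutant cells (-0.42, limma adjusted p 0.0307). COL1A1, COL1A2, LUM, PDGFRA and PDGFRB were called in no comparison. The defining blood marker PTPRC was below the limit in every group. The summed blood level was 7.86 to 8.39 in the co-culture, 6.76 to 6.99 in HER2-mutant cells and 7.75 to 8.18 in PIK3CA-mutant cells. CD14 alone averaged 7.78, 5.39 and 7.51 in the same order of groups. PTPRC and CD3E, above the limit in no group, stood higher in HER2-mutant than in PIK3CA-mutant cells (0.43 and 0.54, limma adjusted p 0.044 and 0.031). HBB did not pass there (0.06, limma adjusted p 0.81). The part of the fibroblast and blood markers in any HOX difference was not tested.

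The first question was which HOX genes had a signal above background. The background limit was the 95th percentile of 612 probe sets of the same array that their names mark as negative controls, and a gene counted as above it in a group when all 4 arrays exceeded it. The limit was 6.37 to 6.66 in the co-culture, 6.73 to 7.12 in HER2-mutant cells and 6.32 to 6.39 in PIK3CA-mutant cells. By this rule 3 of 23 HOX probe sets were above background in the co-culture, 2 in HER2-mutant cells and 3 in PIK3CA-mutant cells. Those shares were 13%, 8.7% and 13%, against 47.4%, 43.2% and 49% of all named probe sets. HOXC9 and HOXC13 were above the limit on 12 of 12 arrays. HOXC8 was above it on 4 of 4 co-culture arrays, 0 of 4 HER2-mutant arrays and 4 of 4 PIK3CA-mutant arrays. The other 20 genes were above it on 0 of 12 arrays.

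**Figure D1:**
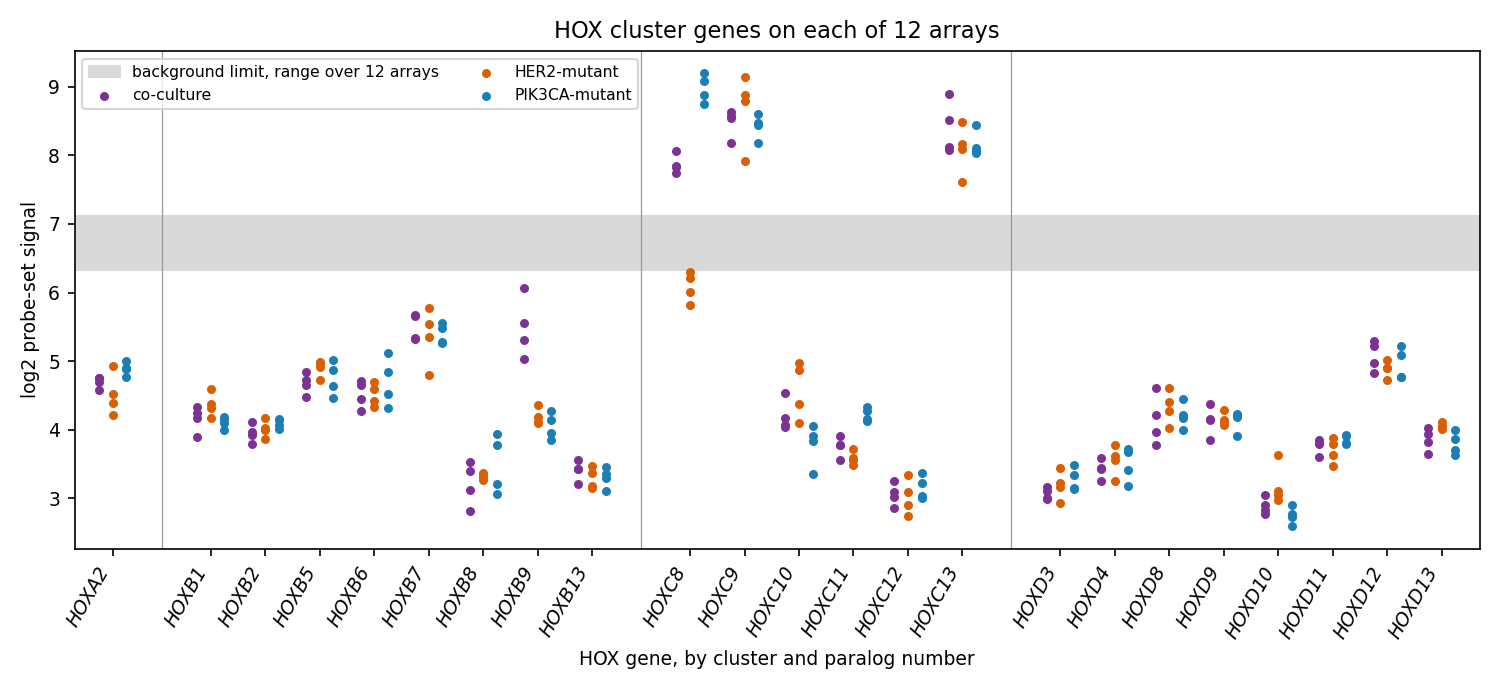
Log2 probe-set signal (y axis) of the 23 HOX genes (x axis, by cluster and paralog number) on the 12 arrays, 1 point per array, with co-culture, HER2-mutant and PIK3CA-mutant arrays side by side. The grey band spans the background limits of the 12 arrays, 6.32 to 7.12. HOXC9 and HOXC13 lie above it on all arrays and HOXC8 on all but the HER2-mutant arrays, while the other 20 genes stay between 2.60 and 6.07.

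All 3 genes above background belong to the HOXC cluster, and they are not all neighbours. In RefSeq's gene order HOXC8 lies next to HOXC9, while HOXC10, HOXC11 and HOXC12 lie between HOXC9 and HOXC13. These intervening genes stayed between 2.74 and 4.97 on all arrays. Of the paralog classes, 0 of 5 measured genes of groups 1 to 4, 1 of 6 of groups 5 to 8 and 2 of 12 of groups 9 to 13 passed the limit. No HOXB or HOXD gene did, the HOXB genes ranging from 2.82 to 6.07 and the HOXD genes from 2.60 to 5.29 over the 12 arrays.

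With a far lower limit, the 30th percentile of all named probe sets of the array (4.30 to 4.42), 8 HOX genes counted as above it in the co-culture, 6 in HER2-mutant cells and 8 in PIK3CA-mutant cells. The corresponding shares of all named probe sets were 66.7%, 65.5% and 66.6%. HOXB5, HOXB7 and HOXD12 then joined HOXC8, HOXC9 and HOXC13 in all groups. HOXA2 joined in the co-culture and PIK3CA-mutant cells, HOXB9 in the co-culture and HOXB6 in PIK3CA-mutant cells. HOXB7, a trunk gene studied in breast cancer, was at 5.50 ± 0.19 in the co-culture, 5.37 ± 0.42 in HER2-mutant cells and 5.39 ± 0.14 in PIK3CA-mutant cells (SD, n = 4 each).

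HOXC8, a trunk gene that in mice patterns thoracic vertebrae and motor neurons, showed the largest differences among the 23 genes in each comparison that involved HER2-mutant cells alone. Its log2 signal was 7.74, 7.83, 8.06 and 7.85 on the co-culture arrays. It was 6.01, 5.82, 6.21 and 6.30 on the HER2-mutant arrays. It was 8.88, 9.08, 8.75 and 9.19 on the PIK3CA-mutant arrays. No 2 groups overlapped, the co-culture standing between the lines.

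In limma, HOXC8 differed by -2.88 ± 0.15 (SE) between the HER2-mutant and PIK3CA-mutant cells (adjusted p 9.08e-14), by 1.78 ± 0.15 between the co-culture and HER2-mutant cells (adjusted p 9.3e-10) and by -1.10 ± 0.15 between the co-culture and PIK3CA-mutant cells (adjusted p 9.1e-06), all on the log2 scale. Since every HER2-mutant array was below its own background limit for this gene, its level there is bounded only from above. Set against that limit, HOXC8 was at least 1.87-fold higher in the co-culture and at least 4.03-fold higher in PIK3CA-mutant cells than in HER2-mutant cells. The co-culture was 2.15-fold lower than PIK3CA-mutant cells, with both above the limit. In bulk RNA, fewer cells that express a gene and less RNA of it per cell cannot be told apart. The 3 comparisons share arrays and are not independent of each other.

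**Figure D2:**
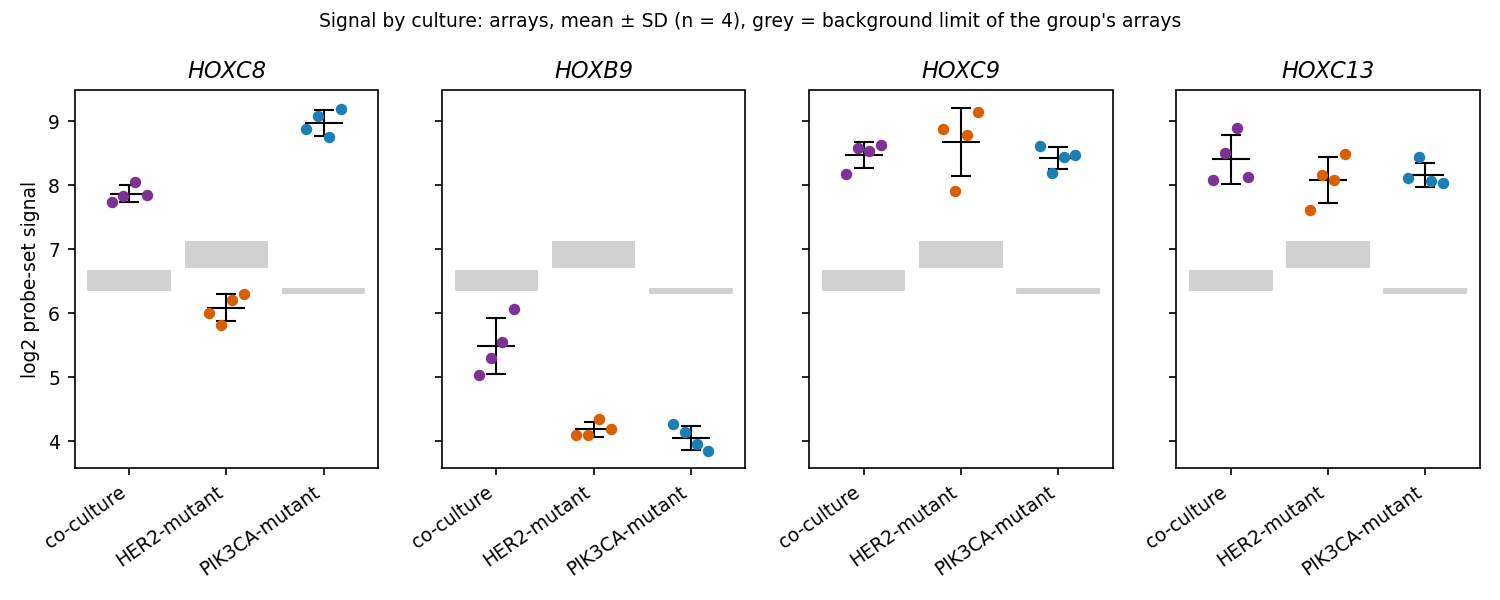
Log2 probe-set signal (y axis) of HOXC8, HOXB9, HOXC9 and HOXC13 in the co-culture, HER2-mutant cells and PIK3CA-mutant cells, with points for arrays, horizontal marks for means, bars for ± 1 SD (n = 4) and grey bands for the range of the group's background limits. HOXC8 falls into separate levels of 7.87, 6.09 and 8.97, HOXB9 is higher in the co-culture but under the limit, and HOXC9 and HOXC13 overlap between groups.

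A mixture of 75% HER2-mutant and 25% PIK3CA-mutant signal, formed on the linear scale from the means of the lines, gave an expected HOXC8 level of 7.48. The co-culture lay 0.40 above it on the log2 scale, against an SD of 0.13 between its 4 arrays, and this excess was not tested. With the HER2-mutant arrays raised to their background limit the excess was 0.09. That SD is between single co-culture arrays and leaves out the spread of the lines, so it cannot decide either excess.

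HOXC9, the neighbour of HOXC8 and in mice a gene of thoracic identity, was above background in every culture. Its log2 signal was 8.18, 8.58, 8.54 and 8.62 in the co-culture, 8.88, 7.92, 8.79 and 9.14 in HER2-mutant cells, and 8.61, 8.18, 8.44 and 8.47 in PIK3CA-mutant cells. The groups overlapped, and HER2-mutant replicate 2 was the lowest of the 12 arrays. The difference was -0.20 between the co-culture and HER2-mutant cells (95% interval -0.60 to 0.19, limma adjusted p 0.458), 0.05 between the co-culture and PIK3CA-mutant cells (-0.34 to 0.45, 0.914) and 0.26 between the HER2-mutant and PIK3CA-mutant cells (-0.14 to 0.65, 0.307). Without HER2-mutant replicate 2, HOXC9 was lower in the co-culture than in HER2-mutant cells, at -0.46 (limma adjusted p 0.0201) and higher in HER2-mutant than in PIK3CA-mutant cells by 0.51 (0.00785). Whether HOXC9 passed in these comparisons thus rests on that array.

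HOXC13, which controls keratin genes of hair and nail, was also above background in every culture. Its log2 signal was 8.08, 8.51, 8.90 and 8.12 in the co-culture, 7.62, 8.16, 8.08 and 8.48 in HER2-mutant cells, and 8.11, 8.45, 8.07 and 8.03 in PIK3CA-mutant cells. All groups overlapped. The difference was 0.32 between the co-culture and HER2-mutant cells (95% interval -0.07 to 0.70, limma adjusted p 0.203), 0.24 between the co-culture and PIK3CA-mutant cells (-0.15 to 0.63, 0.476) and -0.08 between the HER2-mutant and PIK3CA-mutant cells (-0.46 to 0.31, 0.779), with the sign of the last turning under quantile normalization and under centring on array medians. The intervals of both genes leave room for differences of up to 0.70 on the log2 scale.

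HOXB9, one of the group 9 genes needed for the mouse mammary gland, stood apart in the co-culture. Its log2 signal was 5.04, 5.31, 5.55 and 6.07 on the co-culture arrays. It was 4.11, 4.11, 4.36 and 4.19 on the HER2-mutant arrays, and 4.28, 4.15, 3.96 and 3.85 on the PIK3CA-mutant arrays. Every co-culture array exceeded all 8 arrays of the lines grown alone, which overlapped with each other, and every one of the 12 arrays was below its background limit. In limma HOXB9 was higher in the co-culture than in HER2-mutant cells by 1.30 ± 0.19 (SE, adjusted p 4.22e-06) and than in PIK3CA-mutant cells by 1.43 ± 0.19 (adjusted p 5.53e-06), while the HER2-mutant and PIK3CA-mutant lines differed by 0.13 (adjusted p 0.614). No fold is given, as no group exceeded the limit. The spread between co-culture arrays, an SD of 0.44, was the widest of the 23 genes in that group, and each HOXB9 call held without any 1 array, the difference ranging from 1.11 to 1.45 against HER2-mutant cells and from 1.24 to 1.59 against PIK3CA-mutant cells over these and the other settings that could test it.

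The remaining calls concerned genes below background in every culture. HOXC10, in mice a gene of lumbar motor neurons and hindlimb, had a log2 signal of 4.17, 4.04, 4.06 and 4.54 in the co-culture, 4.10, 4.37, 4.97 and 4.88 in HER2-mutant cells, and 3.91, 4.05, 3.84 and 3.36 in PIK3CA-mutant cells. It was higher in HER2-mutant than in PIK3CA-mutant cells by 0.79 ± 0.19 (SE, limma adjusted p 0.0017), with the co-culture overlapping both. HOXC11, a neighbour of HOXC10, was at 3.78, 3.56, 3.78 and 3.91 in the co-culture, 3.72, 3.48, 3.56 and 3.60 in HER2-mutant cells, and 4.13, 4.27, 4.33 and 4.15 in PIK3CA-mutant cells. It was lower in HER2-mutant than in PIK3CA-mutant cells, at -0.63 ± 0.13 (SE, limma adjusted p 0.000421) and lower in the co-culture than in PIK3CA-mutant cells, at -0.47 ± 0.13 (adjusted p 0.0168). The last call was lost without co-culture replicate 2 (-0.40, limma adjusted p 0.0686) or PIK3CA-mutant replicate 3 (-0.43, 0.0547). The signals of HOXC10 and HOXC11, both below background, therefore moved in opposite directions between the lines, within the same cluster. Neither difference between the lines passed against a margin of 0.5 (limma adjusted p 0.309 and 0.64).

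HOXD10, a limb gene of the HOXD cluster, was at 2.83, 3.05, 2.77 and 2.91 in the co-culture, 3.12, 3.05, 2.98 and 3.63 in HER2-mutant cells, and 2.73, 2.60, 2.77 and 2.90 in PIK3CA-mutant cells. It was higher in HER2-mutant than in PIK3CA-mutant cells by 0.45 ± 0.14 (SE, limma adjusted p 0.0111). That call was lost without HER2-mutant replicate 4, the highest of the 12 arrays (0.30, limma adjusted p 0.0586). The negative controls moved the same way, the median of their differences being 0.19, higher in HER2-mutant than in PIK3CA-mutant cells. With each array shifted to equal medians of its controls, a separate measure, HOXD10 no longer passed (0.21, limma adjusted p 0.268). HOXD13, a digit gene, did not overlap between the lines, at 4.05 ± 0.04 in HER2-mutant and 3.80 ± 0.17 in PIK3CA-mutant cells (SD, n = 4 each), and did not pass the test (0.26, limma adjusted p 0.15). HOXA2, a gene of the hindbrain and branchial arches, did not overlap between the co-culture (4.70 ± 0.09) and PIK3CA-mutant cells (4.89 ± 0.10) and did not pass either (-0.19, limma adjusted p 0.512). Between the lines HOXA2 differed by -0.38, with overlapping groups (limma adjusted p 0.0586). The overlap lay in HER2-mutant replicate 3, at 4.92, against 4.22 to 4.51 on the other HER2-mutant arrays. The PIK3CA-mutant arrays were at 4.77 to 5.01.

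The remaining 14 genes passed in no comparison. Among them were the hindbrain genes HOXB1 and HOXB2, the trunk genes HOXB5, HOXB6, HOXB7 and HOXB8, and HOXB13, a posterior gene best known from the prostate. HOXC12 completed the HOXC genes, and the others were HOXD3, HOXD4, HOXD8, HOXD9, HOXD11 and HOXD12. Of these genes, HOXB8 had the largest difference, at 3.22 ± 0.32 in the co-culture and 3.50 ± 0.42 in PIK3CA-mutant cells (SD, n = 4 each), a difference of -0.28 (limma adjusted p 0.354).

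**Figure D3:**
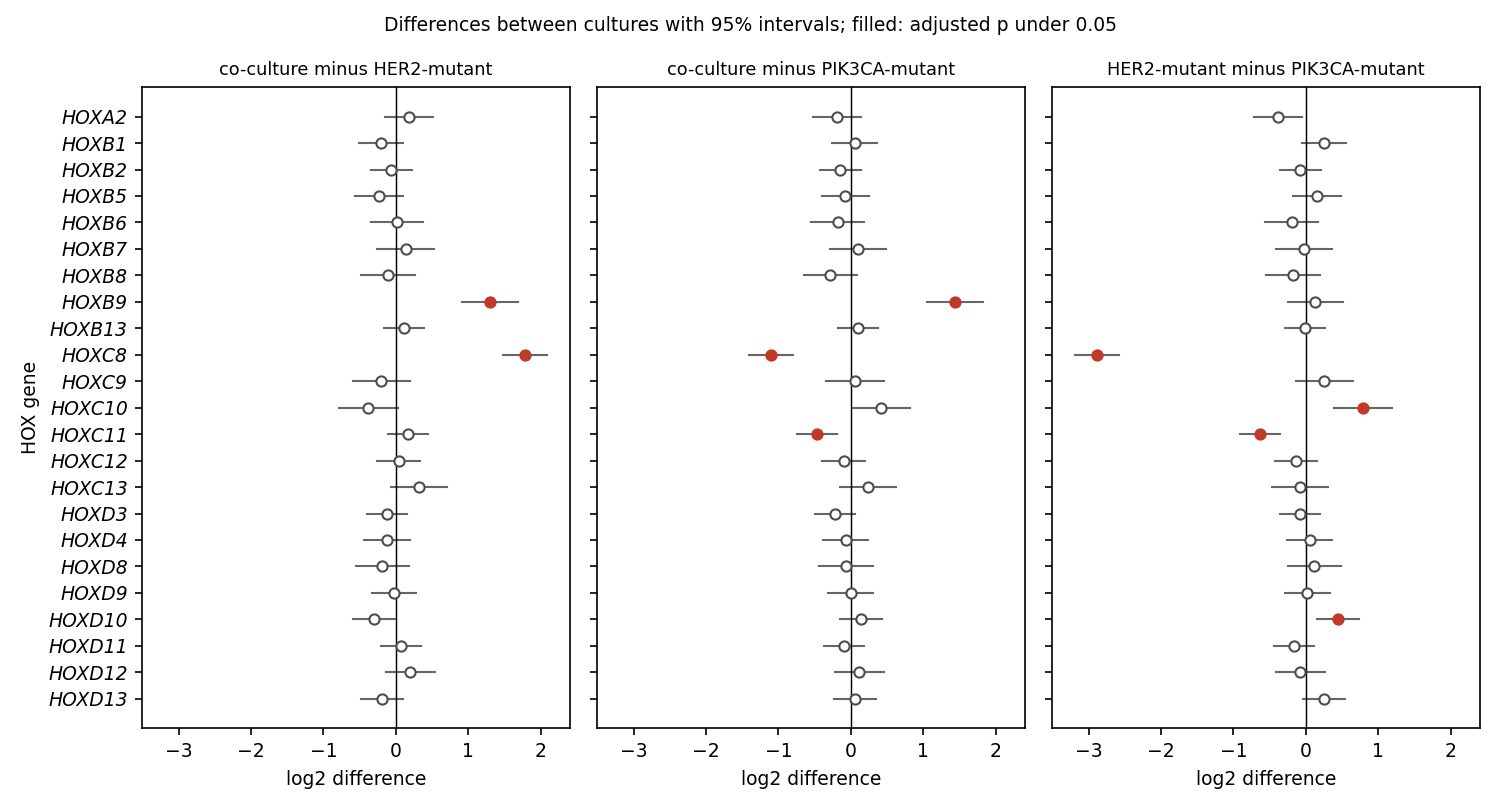
Log2 difference (x axis) of each of the 23 HOX genes (y axis) in the co-culture against HER2-mutant cells, the co-culture against PIK3CA-mutant cells and the HER2-mutant against PIK3CA-mutant cells, with 95% intervals from limma and filled points where the adjusted p was under 0.05. HOXC8 is called in all panels, at 1.78, -1.10 and -2.88, HOXB9 in both panels of the co-culture, and most other genes sit close to 0.

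Counted over all 23 members, limma called 2 higher (HOXB9, HOXC8) and 0 lower in the co-culture against HER2-mutant cells, where it called 17.6% of the 17709 named probe sets higher, 19.4% lower and 37.1% in either direction. At an unadjusted p under 0.05, HOXD10 was also lower there (-0.31, limma p 0.0389). By the same rule HOXC10 was higher in the co-culture than in PIK3CA-mutant cells (0.41, limma p 0.0456). HOXA2 was by that rule lower in HER2-mutant than in PIK3CA-mutant cells (-0.38, limma p 0.0265). None of these passed after adjustment (limma adjusted p 0.0932, 0.173 and 0.0586), and all were below background in every culture. The share of all named probe sets that met the unadjusted rule was not counted. Against PIK3CA-mutant cells, 1 was higher (HOXB9) and 2 lower (HOXC8, HOXC11) in the co-culture, with 7.48% higher, 9.99% lower and 17.5% in either direction among all named probe sets. Between the lines, 2 were higher (HOXC10, HOXD10) and 2 lower (HOXC8, HOXC11) in HER2-mutant cells, with 22.9% higher, 21.4% lower and 44.3% in either direction among all. Each of these member counts is a smaller share of 23 than the share called among all named probe sets, and none is a result about HOX genes as a group.

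At a difference of at least 1 on the log2 scale, HOXB9 and HOXC8 were called higher in the co-culture than in HER2-mutant cells, 2 of 23 (8.7%). Relative to PIK3CA-mutant cells, HOXB9 was called higher and HOXC8 lower in the co-culture, again 2 of 23 (8.7%). Between the lines HOXC8 was called lower in HER2-mutant cells, 1 of 23 (4.35%). Among all named probe sets, that rule called 6.23% higher, 3.92% lower and 10.2% in either direction in the co-culture against HER2-mutant cells. Against PIK3CA-mutant cells it called 1.07% higher, 1.41% lower and 2.48% in either direction. The larger share among the members there rests on 2 genes, of which HOXB9 was below background in every culture. Between the lines it called 6.56% higher, 8.87% lower and 15.4% in either direction in HER2-mutant cells.

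Groups did not overlap for 2 of 23 members between the co-culture and HER2-mutant cells, both higher, against 16.3% higher, 17.5% lower and 33.9% in all among named probe sets. Between the co-culture and PIK3CA-mutant cells they did not overlap for 4 (1 higher and 3 lower), against 9.11%, 12.5% and 21.6%. Between the lines they did not overlap for 5 (3 higher and 2 lower), against 20.6%, 19.8% and 40.4%. The median absolute difference of the 23 genes was 0.19, 0.12 and 0.15 in the same order of comparisons, against 0.26, 0.16 and 0.30 over all named probe sets. The median signed difference was -0.02, -0.07 and -0.03, against -0.06, -0.01 and 0.06.

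Most of the dim members did not differ detectably. Among the 20 HOX genes below the limit in every culture, 1 was called between the co-culture and HER2-mutant cells, 2 between the co-culture and PIK3CA-mutant cells and 3 between the lines. As shares these were 5%, 10% and 15%, against 13.7%, 4.02% and 19.3% of the 8823 named probe sets that were also below the limit in every group. Their differences other than that of HOXB9 reached 0.79 (HOXC10 between the lines) at most on the log2 scale. Signals below the limit do not show whether a gene was transcribed. HOX genes share the homeobox sequence, and whether a probe set also binds a paralog's RNA was not tested.

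Small differences and the split of calls depended on how the arrays were scaled. With each array shifted to equal medians of its negative controls, a setting chosen after seeing the data, the median difference of all named probe sets between the lines moved to -0.17 from 0.06, and 2392 were called higher and 5494 lower in HER2-mutant cells in place of 4048 and 3791. Under the same setting 3866 stood higher and 2279 lower in the co-culture than in HER2-mutant cells (3125 and 3440 as deposited), and 804 higher and 2478 lower than in PIK3CA-mutant cells (1325 and 1770 as deposited). The calls of HOXC8 and HOXB9 kept their direction in all settings in which they were tested.

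HOX proteins bind DNA with TALE homeodomain partners, of which PBX and MEIS or PKNOX proteins join HOX proteins and TGIF proteins are repressors of the same class. Of 9 measured genes of that list, 0 stood higher and 5 lower in the co-culture than in HER2-mutant cells, 2 higher and 0 lower in the co-culture than in PIK3CA-mutant cells, and 7 higher and 0 lower in HER2-mutant than in PIK3CA-mutant cells. The shares of all named probe sets called in either direction were 37.1%, 17.5% and 44.3% in these comparisons. The list's median differences were -0.57, 0.20 and 0.94, against -0.06, -0.01 and 0.06 over all named probe sets. MEIS1 averaged 6.42 ± 0.34 in the co-culture, 9.44 ± 0.09 in HER2-mutant cells and 5.98 ± 0.15 in PIK3CA-mutant cells (SD, n = 4 each). MEIS1 was above the limit on 2 of 4 co-culture arrays, so its measured difference of -3.02 between the co-culture and HER2-mutant cells (limma adjusted p 3.16e-13) rests partly on signals below the limit. It was at least 8.48-fold higher in HER2-mutant cells than in PIK3CA-mutant cells, where it was below the limit (adjusted p 1.4e-14). The high group for MEIS1 was the low group for HOXC8. TGIF1 was at 12.99 ± 0.14, 14.37 ± 0.07 and 12.98 ± 0.19 in the same order of cultures (SD, n = 4 each). PBX4 and MEIS2 passed in no comparison.

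**Figure D4:**
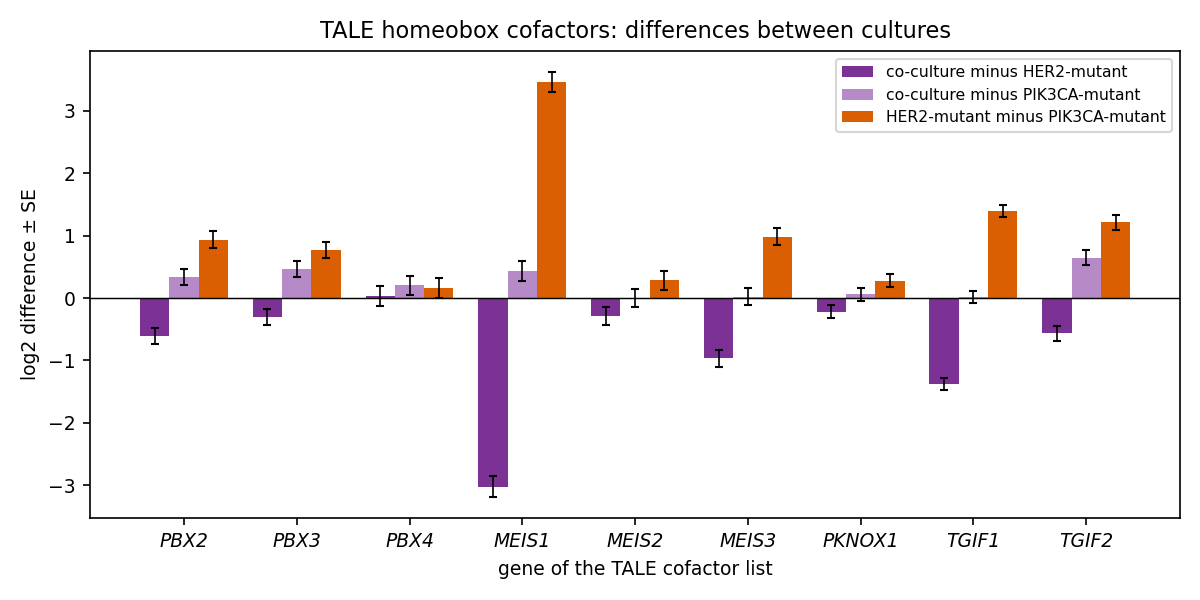
Log2 difference ± SE from limma (y axis) of the 9 measured TALE cofactor genes (x axis) for the co-culture against HER2-mutant cells, the co-culture against PIK3CA-mutant cells and the HER2-mutant against PIK3CA-mutant cells. MEIS1 has the longest bars, -3.02 in the co-culture against HER2-mutant cells and 3.46 between the lines.

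Polycomb and Trithorax proteins hold HOX clusters silent or active. Of 22 measured Polycomb genes, 12 stood higher and 3 lower in HER2-mutant than in PIK3CA-mutant cells, a comparison that called 22.9% of all named probe sets higher and 21.4% lower. EZH1 and EZH2, the alternative H3K27 methyltransferases, went opposite ways, EZH1 by 2.55 and EZH2 by -1.81 (limma adjusted p 4.81e-12 and 1.74e-10). In the co-culture 3 were higher, among them EZH2 by 2.08, and 11 lower than in HER2-mutant cells (17.6% and 19.4% of all named probe sets), and 6 higher and 1 lower than in PIK3CA-mutant cells (7.48% and 9.99%). Of 17 Trithorax group and H3K27 demethylase genes, 9 stood higher and 3 lower in HER2-mutant than in PIK3CA-mutant cells (22.9% and 21.4% of all named probe sets), with KMT2C at 1.41 and the demethylase gene KDM6B at 1.11. In the co-culture 2 stood higher and 5 lower than in HER2-mutant cells (17.6% and 19.4% of all) and 3 higher and 0 lower than in PIK3CA-mutant cells (7.48% and 9.99% of all). Of these 17 genes, 16 were above the limit in at least 1 culture. KMT2B, among those 9 higher genes and those 5 lower genes, was above it in no culture. Of 15 measured genes of the pathway of retinoic acid, a known inducer of HOX genes, 2 stood higher and 5 lower in HER2-mutant than in PIK3CA-mutant cells, where 44.3% of all named probe sets were called in either direction, so that this count is near the background. The receptor gene RXRB was at 1.32. CRABP2, which encodes a retinoic acid carrier, was called lower but lay below the limit in HER2-mutant cells, and no minimum difference can be stated, since its PIK3CA-mutant level was under the HER2-mutant limit. In the co-culture 1 was higher and 3 lower than in HER2-mutant cells (37.1% of all in either direction). Against PIK3CA-mutant cells, 1 was higher and 2 lower in the co-culture (17.5%). Of the 15 retinoic acid genes, 6 were above the limit in at least 1 culture. CYP26B1, the gene called higher in the co-culture than in HER2-mutant cells, and ALDH1A2, among the 3 lower, were above it in no culture.

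Of 8 measured CDX and other upstream genes, 2 (CTCF and GATA3) were above the background limit in at least 1 culture. Against HER2-mutant cells, 0 stood higher and 1 lower (GATA3) in the co-culture. Against PIK3CA-mutant cells, 1 stood higher (CTCF) and 0 lower in the co-culture. The CTCF call (0.40, limma adjusted p 0.0383) held in 14 of 23 alternative settings. Between the lines, 1 stood higher (GATA3) and 0 lower in HER2-mutant cells. The shares of all named probe sets called in either direction were 37.1%, 17.5% and 44.3% in these comparisons. The median differences, in the order of co-culture against HER2-mutant cells, co-culture against PIK3CA-mutant cells and HER2-mutant against PIK3CA-mutant cells, were -0.29, 0.13 and 0.57 for the Polycomb list and -0.07, 0.08 and 0.32 for the Trithorax list. Those of the CDX list were -0.07, -0.04 and 0.12, and those of the retinoic acid list -0.07 and -0.28 for the co-culture and -0.0022 between the lines. With arrays centred on negative controls, the Trithorax list had 4 higher and 3 lower and the retinoic acid list 4 higher and 1 lower in the co-culture against HER2-mutant cells, so that the balance of both lists turned. Between the lines the Trithorax list then had 5 higher and 4 lower and the Polycomb list 11 higher and 5 lower.

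The antisense transcripts measured, HOXA-AS3 and HOXB-AS3, were below the limit in every culture and passed in no comparison. HOXA-AS3 averaged 5.29 ± 0.18 in the co-culture, 5.69 ± 0.38 in HER2-mutant cells and 5.69 ± 0.18 in PIK3CA-mutant cells (SD, n = 4 each). Whether any of these regulators bears on HOXC8 or HOXB9 was not tested.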

How the data were processed

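Values were deposited on a log2 scale, one per probe set and array, made by the authors in the Transcriptome Analysis Console according to the submitters' processing notes. Background correction, summarization, normalization, software version and genome build are not given in the sources used here, so no coordinates are printed. Per the labels' protocols, 5 µg of total RNA was labelled with a whole-transcript kit. Of 24351 probe sets, the 17709 named for exactly 1 gene were used, and each HOX gene had 1. Arrays were grouped by title, 4 to a group, and this number limits precision. With limma 3.58.1 under R 4.3.3, means of the 3 groups were fitted over all named probe sets, letting the spread follow the signal, with no filter on dim probe sets, so that every HOX gene was tested. Calls are two-sided at a Benjamini-Hochberg adjusted p under 0.05. For a bound, arrays below the background limit take that limit. Where a list gene had more than 1 probe set, its brightest stands for it. HOX genes above background are given in full, called ones likewise, and up to 4 called genes of each list are named. PBX4 and MEIS2 were named after their values were seen. Members and lists were chosen with earlier results of these data known. The fit was tested on simulated data. Alternatives were filters, scaling, moderation, a margin, the replicate number as a block and leaving out each array.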

Additional observations from a re-analysis of the deposited data

Results flagged for a closer look

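Within the groups of 4 arrays, 1 of 69 sets of HOX values held an array far from the other 3. HOXD9, a gene below background in every culture, was at 3.91 on PIK3CA-mutant replicate 1, against 4.19 to 4.23 on the other PIK3CA-mutant arrays. Chance marks about 1 in 20 such sets.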

How the results depend on the processing

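The HOXC8 differences passed in all 23 alternatives of each comparison and the HOXB9 differences in all 22 that kept the gene. The replicate block, added to the model, left the counts at 2 higher and 2 lower between the lines, 2 and 0 for the co-culture against HER2-mutant cells, and 1 and 2 against PIK3CA-mutant cells, and changed no call of a HOX gene. With probe sets above the 30th percentile alone, 1 was higher between the lines (HOXC10) and 1 lower in the co-culture than in PIK3CA-mutant cells (HOXC8), since HOXD10 and HOXC11 were left out. With those above the background limit alone, HOXC8 was the call in each comparison (0 higher and 1 lower between the lines, 1 higher against HER2-mutant cells, 0 higher and 1 lower against PIK3CA-mutant cells). Against a margin of 0.5, 0 stood higher and 1 lower between the lines and 1 was lower in the co-culture than in PIK3CA-mutant cells. With arrays centred on negative controls, 1 was higher and 5 lower between the lines (HOXA2, HOXC8, HOXC11, HOXC12, HOXD11). Centred on medians, 1 was lower in the co-culture than in HER2-mutant cells (HOXD10). Leaving out 1 array gave 1 to 3 higher and 2 to 3 lower between the lines, 2 to 2 and 0 to 1 against HER2-mutant cells (HOXC10 without HER2-mutant replicate 1, HOXC9 without HER2-mutant replicate 2), and 1 to 1 and 1 to 2 against PIK3CA-mutant cells. HOXC13 between the lines changed sign with quantile normalization (0.0076), median centring (0.0080) and without HER2-mutant replicate 1 (0.079) or PIK3CA-mutant replicate 2 (0.017), and HOXC9 between the co-culture and PIK3CA-mutant cells with negative-control centring (-0.050) and without PIK3CA-mutant replicate 2 (-0.026), none of them past the threshold. Without 1 array these differences ranged from -0.21 to 0.079 and from -0.026 to 0.15. At the 30th percentile 8, 6 and 8 genes were above background in the co-culture, the HER2-mutant and PIK3CA-mutant cells. The HOXC8 excess over the blend was 1.06 with a blend on the log2 scale, 0.089 with HER2-mutant arrays at their limit, and 0.33 to 0.45 without any 1 array. The causes of the sign changes were not tested.
Same-numbered arrays of different groups had deviations correlated by -0.024 to 0.046 over 12 pairs, so the numbers were not taken to pair them.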
